A study of Mus musculus with 2 samples.

Results

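The 38 genes described here encode parts of the neuronal cytoskeleton and of the motors that carry cargo along axons. They were chosen by name, as a list of tubulins, tubulin regulators, neurofilament subunits, microtubule-associated proteins, motors, membrane skeleton proteins and 4 neuron-associated proteins. All 38 had a row among the 32531 genes counted. The RNA came from the cerebral cortex of untreated adult mice of the line Gdnf-EGFP/Rpl10a (ES2243), in which the ribosomal protein Rpl10a fused to EGFP follows the regulatory sequences of Gdnf. Tagged ribosomes were pulled from the homogenate with antibodies to EGFP, and the RNA on them was sequenced, a method known as TRAP. The series names pericytes as the cells of interest, and the labels give no separate measure of which cells carried the tag. Its 2 immunopurified libraries, IP1 and IP2, form a single group, and no unpurified cortex was analysed here. The labels do not say whether IP1 and IP2 came from different animals, so the spread between them may be technical.

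Microtubules are hollow polymers of alpha and beta tubulin, and in neurons they run the length of axons and dendrites as both scaffold and track. Kinesins move most of their cargo toward the growing ends of microtubules, which lie distally in axons, and cytoplasmic dynein with its activator dynactin moves cargo back toward the cell body. Neurofilaments add calibre and strength to axons, and a spectrin lattice anchored by ankyrins supports the membrane.

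The reads counted in genes numbered 65200231 in IP1 and 72732502 in IP2. Levels are given in CPM, which scales the count of a gene to the total of gene counts in its library. No transcript length was used, so a CPM value compares a gene between the libraries, and the order of different genes by CPM is an order of reads and not of transcripts. Gdnf had 10.2 CPM in IP1 against 7.84 CPM in IP2, and Rpl10a had 4.37 CPM in IP1 and 3.74 CPM in IP2. Reads that aligned at several places were given to no gene, so the Rpl10a values may be too low, to an unknown degree. Over 17306 genes with 10 or more counts in total, the common coefficient of variation between the libraries was 0.407. With 2 libraries of 1 group there was no contrast of conditions to test. The comparison between the libraries is given as log2 of IP1 over IP2, with an exact binomial interval that covers counting error only.

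These genes drew many reads in the ribosome-bound RNA, a measure of reads and not of transcript number. They took 1.27% of the counted reads in IP1, with an exact 95% interval of 1.266 to 1.271%, and 1.21% in IP2, where it was 1.209 to 1.214%. In both libraries 36 of the 38 genes reached 10 CPM, against 47.0% of the 19580 genes with at least 1 count. That share is also the background for the counts of other lists at 10 CPM given below. Their median was 205 CPM in IP1 against 208 CPM in IP2, while the median of all genes with a count was 9.52 CPM in IP1 against 9.20 CPM in IP2. A mean of at least 100 CPM was found for 30 of them. The exceptions at the low end were Stmn1, under 10 CPM in both libraries, and the dynein gene Dync1i1, under 10 CPM in IP2.

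**Figure D1:**
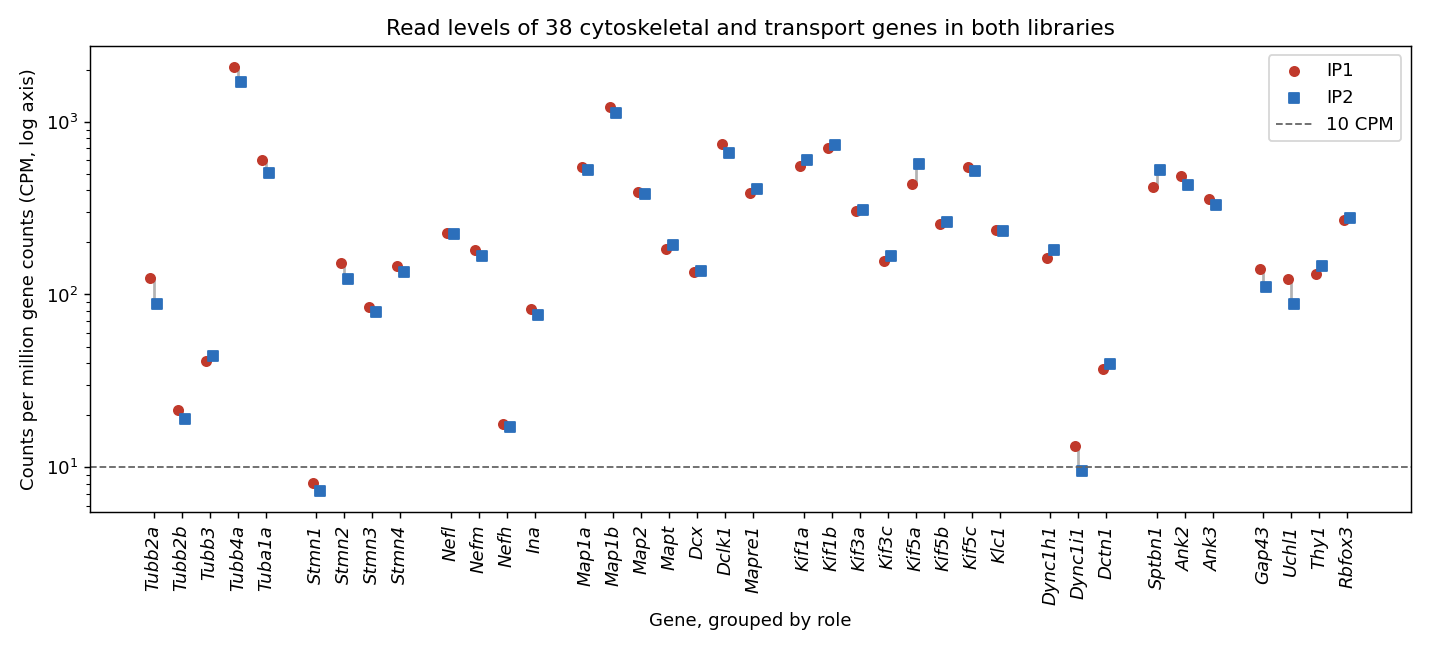
Level in CPM (log axis) of the 38 genes, grouped by role, with a red circle for IP1 and a blue square for IP2, 1 point per library. The points of a gene lie close together in most cases, from Stmn1 near the bottom (8.10 CPM in IP1 and 7.31 CPM in IP2) to Tubb4a at the top (2067 CPM in IP1 against 1689.7 CPM in IP2).

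The level of these genes cannot be credited to one cell type. Markers of neurons were high in the same libraries, with 14 of 14 pan-neuronal genes at 10 CPM in both and median levels of 531 CPM in IP1 against 529.6 CPM in IP2. All 16 pericyte markers and all 10 oligodendrocyte precursor markers also reached 10 CPM in both. So did 9 of 10 astrocyte markers and 9 of 10 oligodendrocyte markers. The astrocyte list summed to 4730 CPM in IP1 against 6426 CPM in IP2, and the oligodendrocyte list to 2324 CPM in IP1 against 2558 CPM in IP2. The summed level of the pericyte list was 6792 CPM in IP1 against 6738 CPM in IP2, that of the precursor list was 2836 CPM in IP1 against 3506 CPM in IP2, and that of the pan-neuronal list was 19325 CPM in IP1 against 17384 CPM in IP2. Single genes dominate the pan-neuronal and pericyte sums. Snap25 gave 12769.9 CPM of the pan-neuronal sum in IP1 and 10795.2 CPM in IP2, and Rgs5 gave 4841 CPM of the pericyte sum in IP1 and 4061 CPM in IP2, while 12 of the 16 pericyte genes were lower in IP1. The share of each cell type in the counts of the cytoskeletal genes was not tested. Fewer cells of a type and less RNA per cell cannot be told apart in such samples.

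None of the 38 genes differed by 1.5-fold or more between the libraries. Among the 17306 genes with 10 or more counts, 18.1% were at least 1.5-fold higher in IP1 and 13.8% at least 1.5-fold lower. Many of those genes had few reads, and the shares were 4.42% higher and 6.57% lower over the 9656 genes averaging 10 CPM or more. Over the 2484 genes averaging 100 CPM or more, where 30 of the 38 lie, they were 0.765% higher and 3.30% lower. For the 30 genes at that level a count of 0 is near these last shares, and nothing is read from it. Within 1.1-fold were 23 of the 38, and of the 30 with a mean of at least 100 CPM, 18 were, against 43.4% of all 2484 genes at that level. The median absolute log2 ratio was 0.12 for those 30 genes and 0.16 for the 2484.

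A narrower limit of 1.25-fold, set after the values were seen, separated 6 genes. Higher in IP1 were 4, namely Tubb2a, Uchl1, Dync1i1 and Gap43, and lower in IP1 were 2, Kif5a and Sptbn1. Over genes averaging 100 CPM or more, 8.05% were 1.25-fold or more higher in IP1 and 10.8% lower, and over genes averaging 10 CPM or more the shares were 16.2% higher and 16.7% lower. With scaling by total gene counts, the counting interval of the log2 ratio lay above 0 for 19 genes and below 0 for 13. It held 0 for 6. The same count over all genes was not made, so nothing is read from these numbers. Those intervals are narrow because the libraries are deep, and they leave out the spread between preparations.

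**Figure D2:**
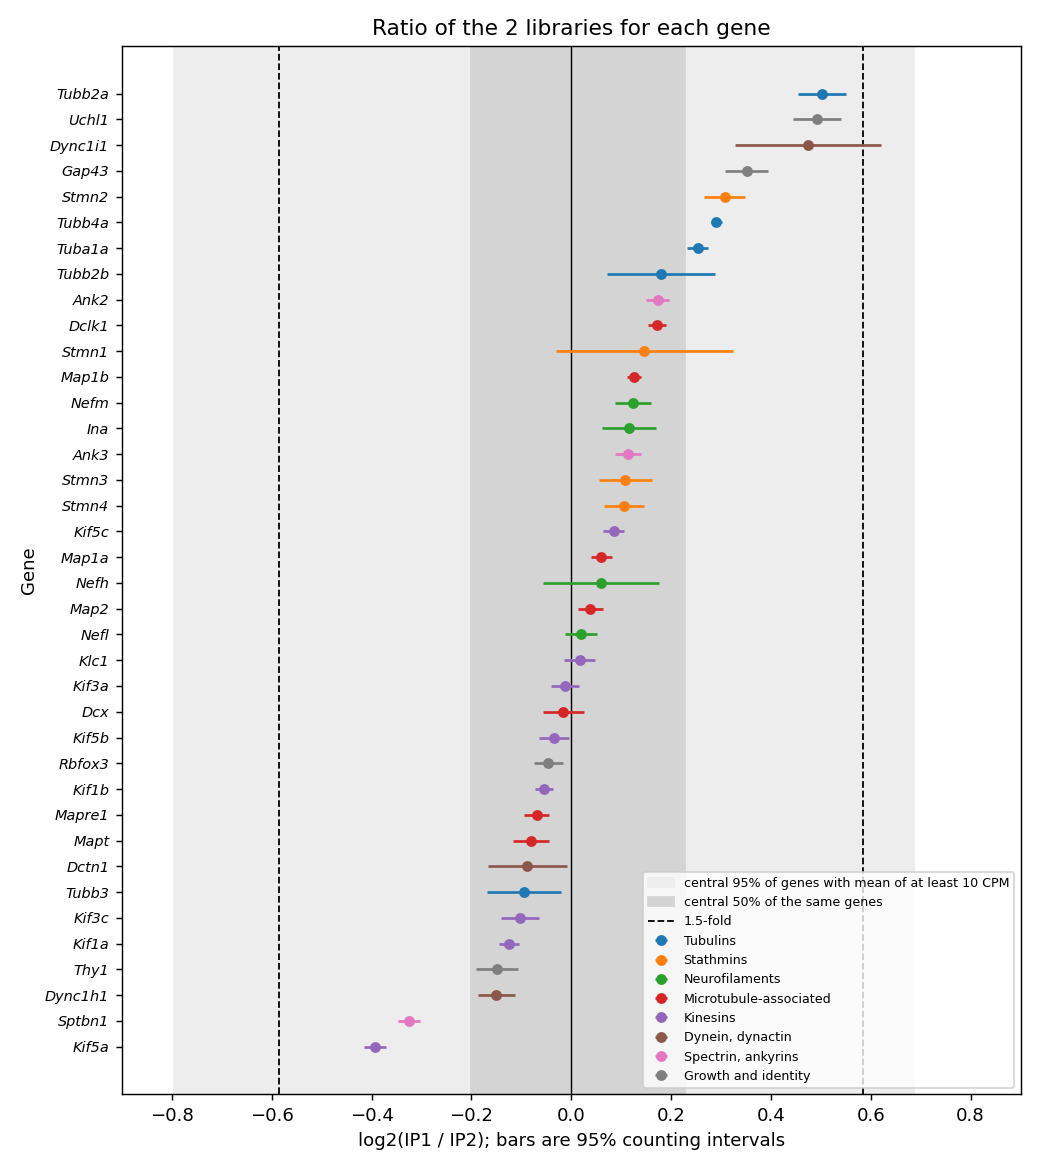
Log2 of IP1 over IP2 for each of the 38 genes, ordered by value and coloured by role, with 95% counting intervals as bars. Every point lies inside the dashed lines at 1.5-fold, between -0.39 for Kif5a and 0.50 for Tubb2a, and the grey bands show the central 95% (-0.80 to 0.69) and central 50% (-0.20 to 0.23) of genes averaging 10 CPM or more.

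Promoter sequences are printed as examples for genes past 1.25-fold, which differ most between the libraries. Both libraries come from the same mouse line, and no link between promoter and library ratio was tested. RefSeq entries (GRCm38.p6, the same assembly as mm10) were matched for 25 of the 38 genes, and those of 4 of the 6 follow. Each run is the 250 bases before the listed start, 5′ to 3′ on the strand of the gene, with matches to the searched motifs in capitals. Sptbn1 has 2 listed starts, of which 1 is shown. Both windows lie within its RefSeq span (chromosome 11, 30099395 to 30268384), so no sequence before its outermost 5′ end was read. The window of Dync1i1 also reaches into the span of that gene, which starts at 5725600.
Tubb2a, chr13:34078009-34078258, minus strand: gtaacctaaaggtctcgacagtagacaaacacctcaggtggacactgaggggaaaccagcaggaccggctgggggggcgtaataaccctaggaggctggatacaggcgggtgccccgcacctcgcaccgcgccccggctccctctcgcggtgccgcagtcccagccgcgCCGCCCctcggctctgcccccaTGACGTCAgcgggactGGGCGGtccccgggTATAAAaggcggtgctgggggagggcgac
Uchl1, chr5:66675871-66676120, plus strand: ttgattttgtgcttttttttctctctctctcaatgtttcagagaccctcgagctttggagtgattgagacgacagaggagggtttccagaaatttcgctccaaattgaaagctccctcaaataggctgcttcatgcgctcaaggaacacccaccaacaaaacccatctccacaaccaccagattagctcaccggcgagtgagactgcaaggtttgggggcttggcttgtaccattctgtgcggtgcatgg
Dync1i1, chr6:5725389-5725638, plus strand: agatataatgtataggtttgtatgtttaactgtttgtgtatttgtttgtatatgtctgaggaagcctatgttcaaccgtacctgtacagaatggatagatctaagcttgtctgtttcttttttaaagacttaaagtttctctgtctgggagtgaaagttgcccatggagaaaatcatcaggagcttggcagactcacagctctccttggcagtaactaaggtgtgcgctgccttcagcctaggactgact
Sptbn1, chr11:30198258-30198507, minus strand: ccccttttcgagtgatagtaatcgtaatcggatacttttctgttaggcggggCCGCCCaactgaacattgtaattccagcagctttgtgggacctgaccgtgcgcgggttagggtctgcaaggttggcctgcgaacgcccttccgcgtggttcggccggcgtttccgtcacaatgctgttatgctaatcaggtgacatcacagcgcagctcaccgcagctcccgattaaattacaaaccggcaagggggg

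In the Tubb2a promoter the capitals mark, in order, a match to the GC box on the reverse strand that begins 81 bases before the start, a match to the cyclic AMP response element at 59 bases, a GC box match at 43 bases and a TATA box match at 29 bases. The Sptbn1 window shown held 1 match, to the GC box on the reverse strand, and its other window held none. No searched motif was found in the windows of Uchl1 and Dync1i1, which says only that these letters are not there. The letters searched on both strands were TATAAA for the TATA box, GGGCGG for the GC box, CCAAT for the box of that name, TGACGTCA for the cyclic AMP response element and TTCAGCACC for part of the site of the repressor REST, and matches of different motifs could overlap.

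Of the 25 genes with an entry, 6 held the TATA box letters in at least 1 window (24%), against 9.02% of 12956 genes with a count and an entry. By window the shares were 20.6% of the 34 windows of the 25 genes and 7.50% of all. The 6 genes were Ank2, Dcx, Kif5c, Map1b, Mapre1 and Tubb2a. These letters began 233 bases before the start in Ank2, 220 in Kif5c, 99 in Map1b, 32 in Mapre1 and 29 in Tubb2a. In Dcx they began at 98 or 193 bases, depending on the window. These are the same site in overlapping windows, so the share by window counts it more than once. The Ank2 window with these letters lies within the RefSeq span of the gene, and some other windows reach into theirs. The search took no account of position, so the shares count letters and not working TATA boxes. The letters of the cyclic AMP response element stood in 3 (12%, against 2.77%, and 8.82% against 2.34% by window), which were Kif5c, Klc1 and Tubb2a. Log2 of IP1 over IP2 was 0.09 for Kif5c, 0.02 for Klc1 and 0.50 for Tubb2a. GC box letters were found in 13 (52.0%, against 57.95%) and CCAAT in 10 (40%, against 39.5%). The REST letters were in 0 of the 25, and in 0.42% of all such genes. The median GC content of their windows was 55.6%, against 58.8% over the windows of genes with a count.

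Among the tubulins, most reads belonged to Tubb4a, a beta tubulin of neurons and myelinating oligodendrocytes. It had 2067 CPM in IP1 and 1689.7 CPM in IP2 (1878 ± 267 CPM, SD, n = 2) and ranked 21st of all genes by mean CPM. Tuba1a (chromosome 15, 98949847 to 98953501), the main alpha tubulin of developing neurons, had 601 CPM in IP1 and 504 CPM in IP2. Both were higher in IP1, with log2 ratios of 0.29 and 0.25. Tubb2a, a beta tubulin abundant in adult brain, had 124.7 CPM in IP1 against 88.0 CPM in IP2, and its log2 ratio of 0.50 was the highest of the 38 genes. Tubb2b, which lies near it on chromosome 13 and is important for neuronal migration, had 21.5 CPM in IP1 and 18.99 CPM in IP2. Tubb3, the beta tubulin most used as a neuronal marker, was lower in IP1, at 41.1 CPM in IP1 against 43.8 CPM in IP2 (log2 ratio -0.09). Tubulin genes have near-identical coding sequences, and a read that aligned at several places was given to no gene. Their CPM values may therefore be too low, to a degree that is unknown and can differ between the genes.

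In percentage points, the shares of reads within the beta tubulin family were close in the libraries. Tubb4a took 75.3% of beta tubulin reads in IP1 and in IP2, and the widely expressed Tubb5 took 15.04% in IP1 and 15.06% in IP2. Tubb3 took 1.495% in IP1, within 1.44 to 1.55% (exact 95% interval), and 1.95% in IP2, within 1.89 to 2.02%. The read ratio of Tubb3 to Tubb4a in IP1 was 0.77 times that in IP2. Alpha tubulin shares differed more in percentage points. Tuba1a took 74.8% of reads in IP1 and 80.6% in IP2, and Tuba4a 18.9% in IP1 and 14.4% in IP2. Tuba4a had 152 CPM in IP1 and 90.1 CPM in IP2, a log2 ratio of 0.75. Of 11 further tubulin genes with 10 or more counts, 4 were at least 1.5-fold higher in IP1 (Tuba4a, Tuba1c, Tuba8 and Tubg2) and 1 lower (Tube1), with the background shares of 18.1% and 13.8% above. No read was counted for Tubb1 or Tuba3a.

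Stathmins bind tubulin dimers and promote the shortening of microtubules. All 4 were higher in IP1, by log2 ratios of 0.11 to 0.31, and stayed so under each scaling tried. With TMM scaling, Stmn3 and Stmn4 were at only 0.058 and 0.055. The share of all genes higher in IP1 was not counted, so nothing is read from the shared direction. Stmn2, a membrane-bound stathmin of growing axons, had 153 CPM in IP1 and 123 CPM in IP2. Stmn4 had 146 CPM in IP1 against 135 CPM in IP2, and Stmn3 had 85.2 CPM in IP1 and 79.0 CPM in IP2. Stmn1, the cytosolic and widely expressed member, was counted least, with 8.10 CPM in IP1 against 7.31 CPM in IP2 from 528 and 532 reads, and its counting interval held 0. Stmn2 took 39.0% of stathmin reads in IP1 and 35.8% in IP2.

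The genes of neuronal intermediate filaments hardly differed between the libraries. Nefl, the light subunit on which neurofilaments are built, had 226 CPM in IP1 and 223 CPM in IP2. Nefm, the medium subunit, had 181 CPM in IP1 against 166 CPM in IP2, and Ina, which encodes alpha-internexin, had 82.6 CPM in IP1 against 76.2 CPM in IP2. The heavy subunit gene Nefh had the fewest reads, 17.9 CPM in IP1 against 17.2 CPM in IP2. Their log2 ratios ran from 0.02 to 0.12, and that of Nefl turned negative with TMM or DESeq2 scaling. Nefl took 44.6% of the reads of the 4 genes in IP1 and 46.3% in IP2, and Nefm took 35.6% in IP1 and 34.4% in IP2. Ina took 16.3% in IP1 and 15.8% in IP2, and Nefh 3.53% in IP1 and 3.56% in IP2. Among 9 intermediate filament genes of other cells and the nuclear lamina, 8 reached 10 CPM in both libraries. Vim, of mural cells and glia among others, had 116 CPM in IP1 and 126 CPM in IP2. Synm, a filament gene of muscle and astrocytes, had 47.8 CPM in IP1 against 80.3 CPM in IP2, and was the 1 gene of that list past 1.5-fold. Of all genes averaging 10 CPM or more, 4.42% were that much higher in IP1 and 6.57% lower.

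**Figure D3:**
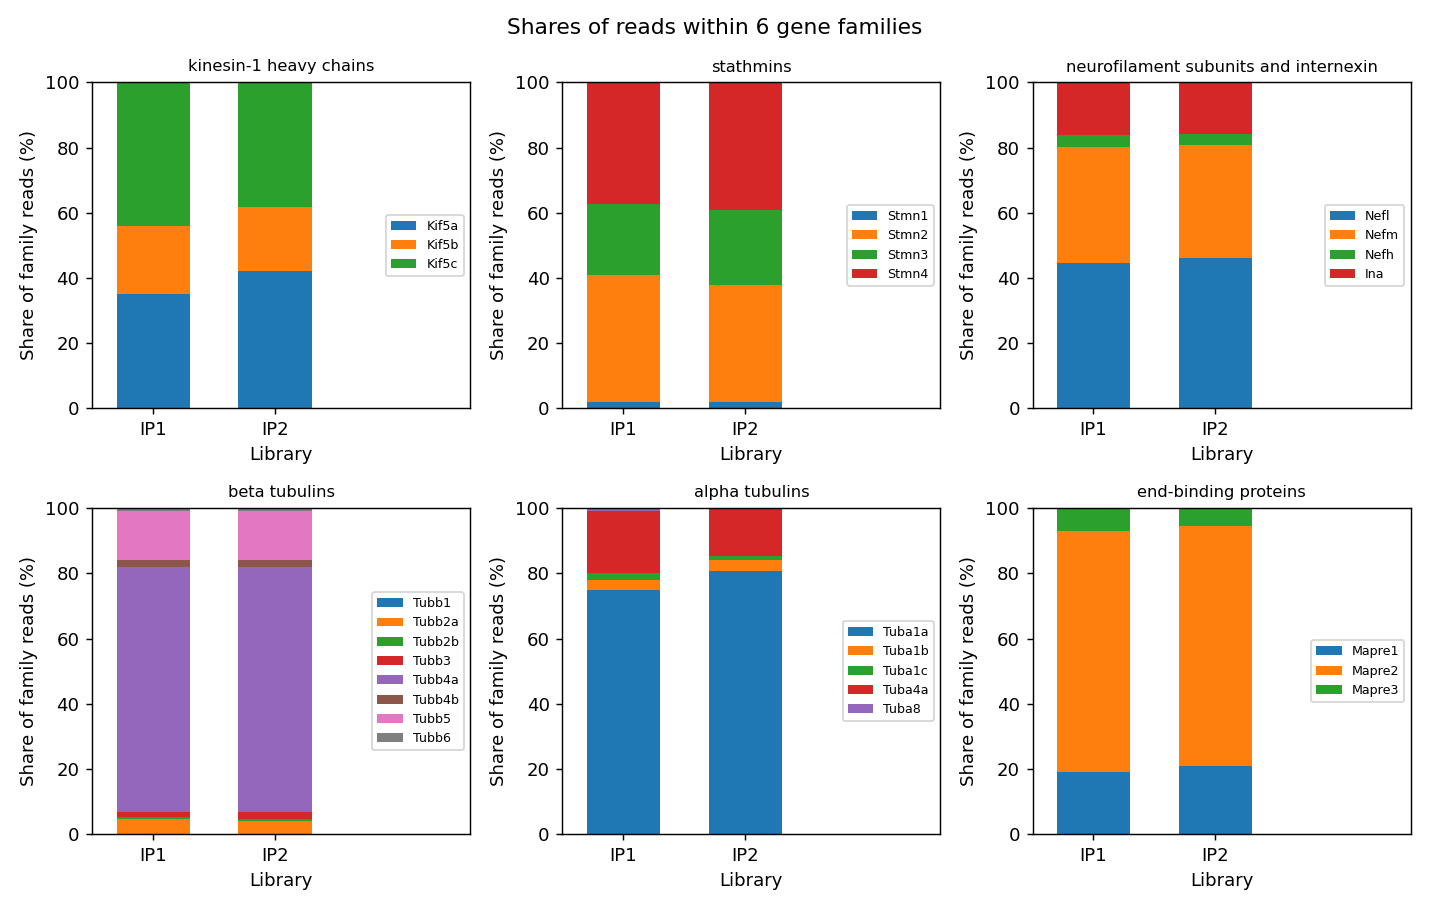
Share of the reads of a family that each gene took, in percent, for 6 gene families in IP1 (left bar) and IP2 (right bar), 1 library per bar. The largest shift among the 38 genes is that of Kif5a, at 35.1% of kinesin-1 heavy chain reads in IP1 and 42.3% in IP2, while Tubb4a holds 75.3% of beta tubulin reads in both.

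Microtubule-associated proteins stabilise and space microtubules. Map1b, which is prominent in growing axons, had 1221 CPM in IP1 against 1119 CPM in IP2, and Map1a, its adult counterpart, had 544 CPM in IP1 and 522 CPM in IP2. Map1b took 68.6% of MAP1 reads in IP1 and 67.5% in IP2. Map2, of dendrites, had 389.6 CPM in IP1 and 379 CPM in IP2. Mapt, which encodes the axonal protein tau, had 183 CPM in IP1 and 194 CPM in IP2. Against Map4, the form found in many cell types, both took a smaller share in IP1. Map2 held 31.2% of the reads of the 3 genes in IP1 and 32.7% in IP2, and Mapt held 14.7% in IP1 and 16.7% in IP2. Map4 held 54.2% in IP1 and 50.6% in IP2.

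Dcx, the doublecortin gene of migrating young neurons, was also counted in this adult tissue, with 136 CPM in IP1 against 137 CPM in IP2. Its relative Dclk1, a microtubule-binding kinase that stays on in adult brain, had 746 CPM in IP1 and 663 CPM in IP2. Mapre1, for the end-binding protein that tracks growing microtubule tips, had 387 CPM in IP1 and 406 CPM in IP2. Mapre3, the neuronal end-binding gene, was higher in IP1, with 144 CPM in IP1 against 110.0 CPM in IP2, so the read ratio of Mapre3 to Mapre1 was 1.37-fold higher in IP1. Of 33 further microtubule-associated genes, 30 reached 10 CPM in both libraries, 1 was 1.5-fold or more higher in IP1 (Tppp3) and 1 lower (Clip2). The most counted among them were Mapre2, with 1509 CPM in IP1 against 1436 CPM in IP2, Clip3 and Dpysl2. Of 26 genes for tubulin-modifying enzymes and tubulin chaperones, 18 reached 10 CPM in both, and 3 were 1.5-fold or more higher in IP1 (Agbl4, Vash2 and Tbcc) and 1 lower (Fign). Of all genes with 10 or more counts, 18.1% were that much higher and 13.8% lower, and of those averaging 10 CPM or more, 4.42% and 6.57%.

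Of the kinesin genes, 6 of 8 were lower in IP1, and Klc1 joined them with TMM or DESeq2 scaling. The share of all genes lower in IP1 was not counted, so nothing is read from this number. Kif5a, a neuronal heavy chain of kinesin-1, had 434 CPM in IP1 and 569.9 CPM in IP2, a log2 ratio of -0.39 and the lowest of the 38 genes. Kif5c, the other neuronal heavy chain, had 546 CPM in IP1 against 515 CPM in IP2. The ubiquitous heavy chain Kif5b had 257 CPM in IP1 and 263 CPM in IP2. Within the kinesin-1 heavy chains, Kif5a took 35.1% of reads in IP1 (34.8 to 35.4%) and 42.3% in IP2 (42.0 to 42.6%), and Kif5c took 44.2% in IP1 and 38.2% in IP2. The order of Kif5a and Kif5c by read share was thus reversed between the libraries. The span of Kif5a (chromosome 10, 127225695 to 127266348) overlaps that of Dctn2, and reads matching both genes were not assigned. Klc1, for a light chain that links kinesin-1 to cargo, had 237 CPM in IP1 against 234 CPM in IP2.

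Other kinesin genes of the list carry further cargo. Kif1a, which hauls synaptic vesicle precursors, had 550.5 CPM in IP1 and 600.2 CPM in IP2. Kif1b, whose forms carry mitochondria and vesicle precursors, had 703 CPM in IP1 and 730.0 CPM in IP2. Kif3a, a core subunit of kinesin-2, had 306 CPM in IP1 against 309 CPM in IP2, and its neuronal relative Kif3c had 156 CPM in IP1 and 167 CPM in IP2. Kif3b had 112 CPM in IP1 and 111 CPM in IP2. Of 22 further kinesin and light chain genes with 10 or more counts, 12 reached 10 CPM in both libraries, and Kif2b had no count. In IP1, 2 of them were 1.5-fold or more higher (Kif24 and Klc3) and 5 lower (Kif9, Kif13b, Kif17, Kif19a and Kif26b), beside 18.1% higher and 13.8% lower of all genes with 10 or more counts. Kinesins of cell division were scarce, with median levels of 2.33 CPM in IP1 against 3.29 CPM in IP2 and 0 of 13 at 10 CPM in both. The most counted of these was Kif11, at 7.99 CPM in IP1 against 9.40 CPM in IP2.

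Dynein genes of the list differed in read number. Dync1h1, the motor heavy chain, had 162 CPM in IP1 against 179.7 CPM in IP2, and Dctn1, the large subunit of dynactin, had 37.0 CPM in IP1 and 39.3 CPM in IP2. Dync1i1, the intermediate chain found mainly in neurons, had 13.2 CPM in IP1 and 9.53 CPM in IP2, from 863 and 693 reads, with a log2 ratio of 0.47 (counting interval 0.33 to 0.62). The ubiquitous chain Dync1i2 had 179 CPM in IP1 and 184 CPM in IP2. Dync1i1 thus took 6.88% of intermediate chain reads in IP1 (6.44 to 7.33%) and 4.93% in IP2 (4.58 to 5.31%). Of 28 other dynein, dynactin and adaptor genes, 24 reached 10 CPM in both, with 1 at 1.5-fold or more higher in IP1 (Hook2) and 2 lower (Dynlt1b and Bicdl1, which the files list as Ccdc64). Pafah1b1, the Lis1 regulator of dynein, had 614 CPM in IP1 and 622.5 CPM in IP2. Of 16 genes linking motors to mitochondria, lysosomes and vesicles, 15 reached 10 CPM in both, led in reads by Trak1, with 332 CPM in IP1 against 343 CPM in IP2. Kidins220, at 211 CPM in IP1 against 318 CPM in IP2, was the 1 gene of these past 1.5-fold, and the same shares of all genes apply to the dynein and adaptor lists.

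In the membrane skeleton, Sptbn1 was lower and both ankyrins were higher in IP1. Sptbn1, which encodes the beta spectrin of axon shafts and many other cells, had 419 CPM in IP1 and 525 CPM in IP2 (log2 ratio -0.32). Ank2, the ankyrin of axon shafts, had 484 CPM in IP1 and 429 CPM in IP2. Ank3, the ankyrin that builds the axon initial segment, had 355 CPM in IP1 and 328 CPM in IP2. Ank2 took 55.1% of ankyrin reads in IP1 and 53.1% in IP2, and Ank3 40.4% in IP1 and 40.6% in IP2. Nfasc, a partner of ankyrins, had 252 CPM in IP1 and 359.7 CPM in IP2. Of 13 further genes of this skeleton with 10 or more counts, 12 reached 10 CPM in both and 0 were past 1.5-fold in either direction. Of all genes averaging 10 CPM or more, 4.42% were that much higher and 6.57% lower. For a list of this size a count of 0 is near these shares, and nothing is read from it.

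The 4 remaining genes split evenly by direction. Gap43, a protein of growth cones, had 140.3 CPM in IP1 against 110.0 CPM in IP2, and Uchl1, a ubiquitin hydrolase abundant in neurons, had 124 CPM in IP1 against 87.9 CPM in IP2. Their log2 ratios were 0.35 and 0.49. Uchl1 overlaps its antisense gene Uchl1os, and reads matching both genes were not assigned. Without a known strand setting, how many reads Uchl1 lost in this way is unknown. Thy1, a surface protein of projection neurons that other cells also carry, had 131 CPM in IP1 and 146 CPM in IP2. Rbfox3, the splicing factor known as the antigen NeuN, had 268 CPM in IP1 and 277 CPM in IP2.

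By role, the ratios with scaling by total gene counts leaned in different directions but overlapped widely. The median log2 ratio of IP1 over IP2 was 0.25 for the 5 tubulins, 0.13 for the 4 stathmins and 0.09 for the 4 filament genes. It was 0.04 for the 7 microtubule-associated genes, -0.04 for the 8 kinesin genes and -0.09 for the 3 dynein and dynactin genes. For the 3 spectrin and ankyrin genes it was 0.11, and for the 4 remaining genes 0.15. The lean depends on the scaling. The median of the microtubule-associated genes is the value of Map2, which was -0.012 with TMM and -0.017 with DESeq2 size factors. Over all 38 genes the median was 0.06, and over the 17306 genes with 10 or more counts it was also 0.06. The libraries are 1 group, so these medians describe the 2 preparations and carry no test.

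Cell type markers give the setting of these ratios. Pan-neuronal markers had a median log2 ratio of 0.04, with 8 genes higher and 6 lower in IP1 and 0 past 1.5-fold. Pericyte markers had a median of -0.28, with 4 of 16 at least 1.5-fold lower in IP1, and oligodendrocyte precursor markers one of -0.37, with 3 of 10. For oligodendrocyte markers the median was -0.32, with 2 of 10, and for astrocyte markers -0.43, with 4 of 10. Over all genes averaging 10 CPM or more, as nearly all of these markers do, 6.57% were at least 1.5-fold lower. Kif5a and Sptbn1, at -0.39 and -0.32, were near the medians of the pericyte, oligodendrocyte lineage and astrocyte lists. Pan-neuronal genes ran from -0.35 to 0.57, a range that holds Sptbn1, and each of the other lists named also held genes higher in IP1. The part of any cell type in the ratio of Kif5a or Sptbn1 was not tested. Endothelial markers, with 2 of 10 genes at 10 CPM in both, and microglial markers, with 0 of 8, were scarce. The endothelial list summed to 88.5 CPM in IP1 against 99.1 CPM in IP2, and the microglial list to 30.0 CPM in IP1 against 33.4 CPM in IP2. The median log2 ratio was -0.66 for the endothelial list, with 1 gene 1.5-fold or more higher and 5 lower in IP1, and -0.04 for the microglial list, with 1 higher and 2 lower, where genes with 10 or more counts had shares of 18.1% higher and 13.8% lower.

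**Figure D4:**
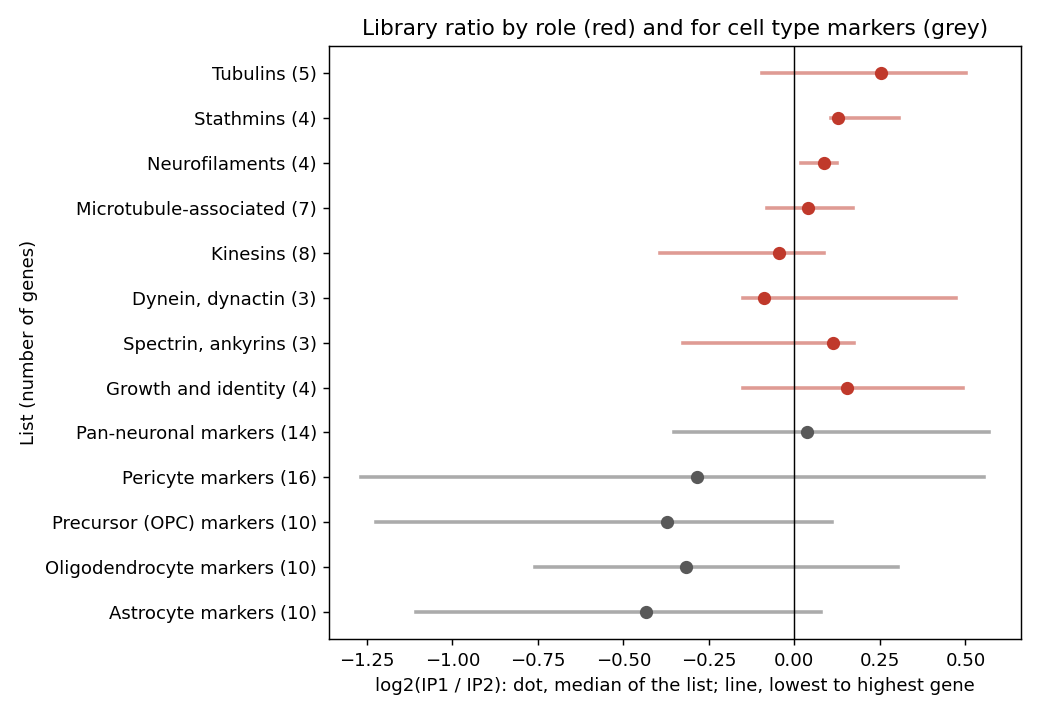
Log2 of IP1 over IP2 for the 38 genes by role (red) and for lists of cell type markers (grey), with a dot at the median of each list, a line from its lowest to its highest gene, and the number of genes in brackets. The role medians lie between -0.09 and 0.25 and the pan-neuronal median at 0.04, while the pericyte, oligodendrocyte lineage and astrocyte medians lie between -0.43 and -0.28.

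Changes of the read ratio within gene pairs depend neither on transcript length nor on library scaling. Of 21 pairs of related genes, 11 kept their read ratio within 1.1-fold between the libraries, 6 shifted by 1.25-fold or more and 0 by 1.5-fold or more. Some genes stand in several pairs. The same counts over other gene pairs were not made, so nothing is read from these numbers. The widest shift was that of Dync1i1 to Dync1i2, 1.42-fold higher in IP1. Next was Mapre3 to Mapre1, and the ratio of Tubb3 to Tubb4a was lower in IP1, 0.77 times that in IP2. Among the pairs that held were Nefh to Nefl (1.03-fold), Stmn3 to Stmn1 (0.97-fold), Map1a to Map1b (0.96-fold), Ank3 to Ank2 (0.96-fold) and Tuba1a to Tuba1b (0.97-fold).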

How the data were processed

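Ribosome-bound cortex RNA was measured in 2 libraries of 1 group. Per the submitters' processing notes, STAR 2.0.0e, HTSeq and the mm10 genome were used. No gene annotation or strand setting is given in the sources used here. The deposited files hold raw counts per gene symbol. Summary lines and a row named unknown (8.9e-07% of listed reads in IP1) were left out of totals. Of the listed reads, 31.2% in IP1 and 31.5% in IP2 aligned at more than 1 place, and 1.64% in IP1 and 1.60% in IP2 matched more than 1 gene. Neither kind was assigned, and 11 of the 38 genes overlap another counted gene by span in RefSeq GRCm38.p6 (Nefm, Nefh, Ina, Map1a, Mapre1, Kif3c, Kif5a, Klc1, Dync1i1, Gap43 and Uchl1).

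Counts were scaled to CPM by the total of gene counts. Ratios used a prior of 0.5 counts, and a gene was called at 1.5-fold, with no p-value. Shares have exact Clopper-Pearson intervals. A count of 0 allows 3 counts, or 0.046 CPM in IP1 and 0.041 CPM in IP2. Intervals and this limit cover counting error only, since PCR copies were not marked. The planned levels per kilobase could not be computed because exon lengths were not used here, so the planned ratios of related genes were replaced by changes of their read ratio between libraries.

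The members, lists and pairs were chosen with earlier results of these data known. By rule the text named all 38 genes, the most counted genes and up to 2 uncounted genes of 16 other lists, and both genes of each pair. One result under this rule is not reported here. Genes of other lists past 1.5-fold, and some further relatives, were named after their values were seen. In those lists, 7 genes were matched by an older symbol. Scaling by edgeR's TMM factors, DESeq2 size factors or totals without Rn45s, the count filter, the prior and each library alone were tried as alternatives. Tools were R 4.3.3, edgeR 4.0.16, DESeq2 1.42.0, Python 3.11.15, numpy 2.4.6, pandas 2.3.3, scipy 1.17.1 and matplotlib 3.10.9.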

Additional observations from a re-analysis of the deposited data

How the results depend on the processing

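The number of genes at 1.5-fold or more stayed at 0 in both directions with TMM factors, DESeq2 size factors, totals without Rn45s, no count filter and a prior of 5 counts. A limit of 1.25-fold, added after the data were seen, gave 4 higher and 2 lower in IP1. The median log2 ratio of IP1 over IP2, 0.06 as reported, was 0.0093 with TMM and 0.0046 with DESeq2 size factors, which moved Nefl, Map2 and Klc1 to the other side of 0 and left 20 genes higher and 18 lower. The same scalings set the median of genes with 10 or more counts to 0.0070 (TMM) and 0.0022 (DESeq2). The median level, 207 CPM on the mean of both libraries, was 215 CPM without Rn45s in the totals and 205 to 208 CPM with either library alone. Either library alone put 36 or 37 genes at 10 CPM. The coefficient of variation of 0.407 was 0.277 over the 14405 genes with 100 or more counts and 0.410 without TMM. Levels per kilobase and length-based ratios, with their alternatives, were not run because no exon lengths were used. No paired analysis was possible because the 2 libraries form a single group. With 2 libraries and no length, small ratios cannot be separated from the spread between preparations, and genes cannot be ordered by transcript number.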
